A study of Mus musculus with 23 samples.

Results

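The genes analysed were Dnmt1, Dnmt3a and Dnmt3b, which encode DNA methyltransferases of the mouse, and the members were every restriction fragment of the deposited read table that overlapped the body of one of them or the 2000 bp before its start. This gave 37 fragments out of 173430, of which 4 lie in Dnmt1, 25 in Dnmt3a and 8 in Dnmt3b. The rule also names one fragment, 198 bp in an intron of Dnmt3a, which was selected on its scaled read level in these same libraries; its values are therefore given as a description, without a test. The study followed DNA methylation along the skeletal muscle lineage with AIMS-seq in 23 libraries. Skeletal muscle was taken as whole tissue (3 libraries, replicates 1 and 2 from 129Sv/C57BL/6J and replicate 3 from C57BL/6J mice). The cultures were proliferating primary myoblasts at passage 8 to 10 (3 cultures, numbered 21, 26 and 27, C57BL/6J) and the same 3 cultures after 1, 2 and 4 days in low-serum differentiation medium (myotubes, 3 libraries a day). Muscle precursor cells were taken at passage 0 (cultures 26 and 27, C57BL/6J). There were also freshly isolated uncultured precursors taken 3 days after CTX injury (1 library, C57BL/6J) or without injury (1 library, C57BL/6J). The embryonic stem (ES) cells were 3 lines, CGR8 (129Sv, with a second library as technical replicate), RD1 (129X1/SvJ) and E14Tg2 (129/Ola). All animals and lines with a stated sex were male. Each culture or line stands for itself, and whole muscle holds other cells beside muscle fibres. Strain changes together with cell type between the ES lines and all cultures, so the contributions of strain and cell type cannot be told apart.

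DNMT1 copies methylation onto the new strand after replication, whereas DNMT3A and DNMT3B place methyl groups on unmethylated CpG sites. Their genes start in CpG-rich promoters of the kind that is usually free of methylation, and Dnmt3b is known for high expression in ES cells and low expression in most differentiated tissues. AIMS-seq reads methylation at CCCGGG sites. SmaI cuts the unmethylated ones and leaves blunt ends, XmaI then cuts those that remain and leaves cohesive ends to which adaptors are ligated. A fragment is amplified when the sites at both of its ends were methylated in the same molecule. A read count is therefore a measure of doubly methylated fragments that also depends on fragment length and on PCR, and it is no percentage of methylation. No gene expression was measured in these libraries, so the labelled cell types were not checked against marker transcripts. A partial loss of methylation and a methylated minority of cells cannot be told apart in these bulk samples.

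What the reads turned on is shown by 4 fragments, printed 5′ to 3′ on the plus strand of mm9 with each CpG in capitals. The first 3 are the fragments under 2000 bp with the most reads (3417, 1863 and 703 over all libraries); the last, from the Dnmt3b promoter, gave no read in any library and is the contrast.
Dnmt3a intron, chr12:3819797-3819994: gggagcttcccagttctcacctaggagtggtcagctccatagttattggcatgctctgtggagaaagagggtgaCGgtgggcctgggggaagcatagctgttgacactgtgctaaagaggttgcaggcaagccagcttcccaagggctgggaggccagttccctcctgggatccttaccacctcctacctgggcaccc
Dnmt3b first intron, chr2:153475769-153475964: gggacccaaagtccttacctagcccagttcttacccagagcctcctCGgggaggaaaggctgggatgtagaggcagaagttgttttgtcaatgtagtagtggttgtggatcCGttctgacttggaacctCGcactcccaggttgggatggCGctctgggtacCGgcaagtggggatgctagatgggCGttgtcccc
Dnmt3a intron near the promoter, chr12:3808575-3808803: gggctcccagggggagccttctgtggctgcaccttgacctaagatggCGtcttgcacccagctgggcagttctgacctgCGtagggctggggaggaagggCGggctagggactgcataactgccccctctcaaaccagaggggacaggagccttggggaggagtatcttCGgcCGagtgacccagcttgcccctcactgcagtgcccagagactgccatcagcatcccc
Dnmt3b promoter and first exon, chr2:153475153-153475289: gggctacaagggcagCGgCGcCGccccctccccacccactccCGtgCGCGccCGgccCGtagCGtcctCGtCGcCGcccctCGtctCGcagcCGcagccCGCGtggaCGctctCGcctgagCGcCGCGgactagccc
Each begins with the second part of one recognition site and ends with the first part of the next, so the CpG of the site itself lies across the boundary and is not among the capitals. The Dnmt3a intron fragment held 1 CpG in 198 bp, the Dnmt3b first-intron fragment 6 in 196 bp and the promoter-near Dnmt3a fragment 5 in 229 bp, whereas the unread Dnmt3b promoter fragment held 22 in 137 bp.

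The libraries held between 6237851 and 14696855 reads. Levels are given as CPM, the read count scaled by all reads of the library, and the 2 CGR8 libraries were summed to 1 sample, so ES means are over 3 lines. Length composition differed between groups: fragments of 6000 to 7999 bp took 0.088 to 0.146% of the reads in muscle and 0.13 to 0.288% in myoblasts and myotubes, but 0.588 to 0.75% in ES cells. Fragments of 190 to 209 bp took 1.14 to 1.34% in muscle, 1.21 to 2.54% in myoblasts and myotubes and 1.36 to 2.04% in ES cells. Levels relative to fragments of the same length are therefore given beside the main results.

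**Figure D1:**
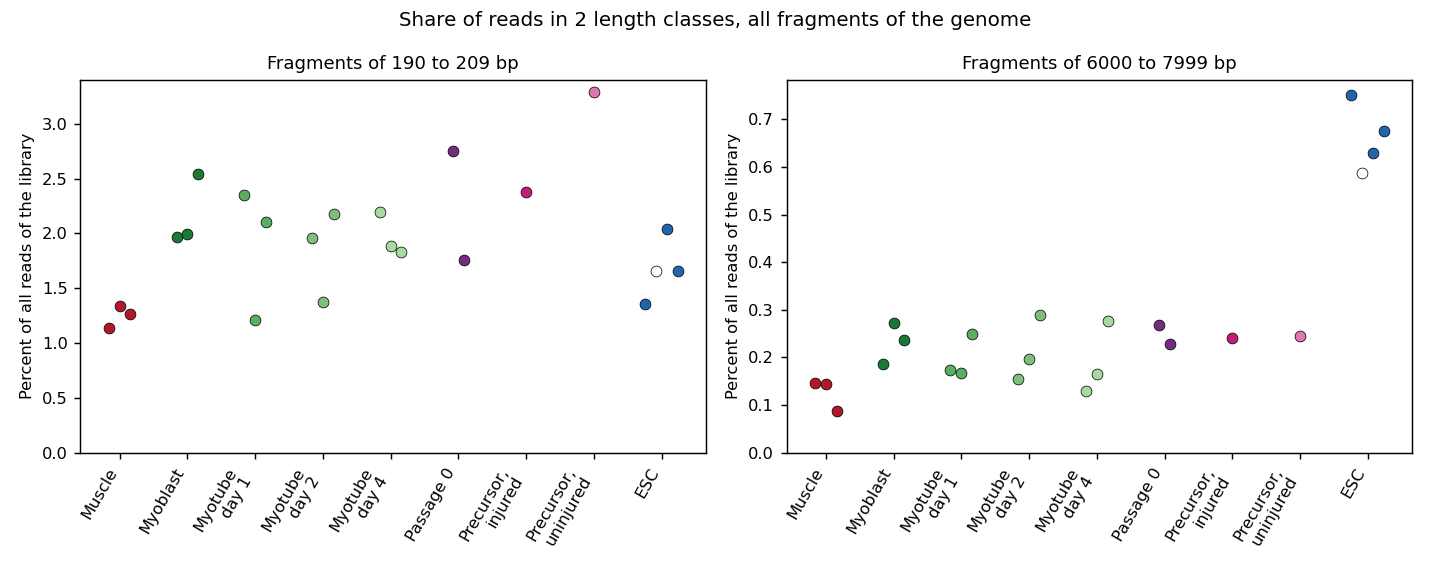
Percent of each library's reads in fragments of 190 to 209 bp (left) and of 6000 to 7999 bp (right), 1 point a library and all fragments of the genome counted; the open circle is the CGR8 technical replicate. The ES libraries, at 0.588 to 0.75%, lie above all others for the longer class, and the 3 muscle libraries lie between 1.14 and 1.34% for the shorter one.

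Reads were concentrated in a few fragments. Of the 37 members, 11 had no read in any library, 8 had 1 to 9 reads over all libraries, and 7 reached a mean of 1 CPM in at least 1 group; together the members held 6934 reads. Of the 3 genes, Dnmt1 has no fragment under 2000 bp, Dnmt3a has 14 and Dnmt3b has 4, and 10 members are 10000 bp or longer, a length that PCR recovers poorly. The Dnmt3a and Dnmt3b promoters were nearly unread: 9 of the 10 members of 100 to 699 bp in a promoter window (2000 bp before to 500 bp after an annotated transcript start), or 90%, had fewer than 10 reads over all 23 libraries. Over all promoter-window fragments of that length the share was 6861 of 8923, or 76.9%, and over fragments of that length outside promoter windows it was 43.4%, so the members' share lies near that of promoters in general. The exception was the Dnmt3b first-intron fragment. Its left site is shared with a fragment of 479 bp with 57 CpGs that had no read. The left site of the promoter-near Dnmt3a fragment is shared with a fragment of 603 bp with 40 CpGs that had no read either.

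**Figure D2:**
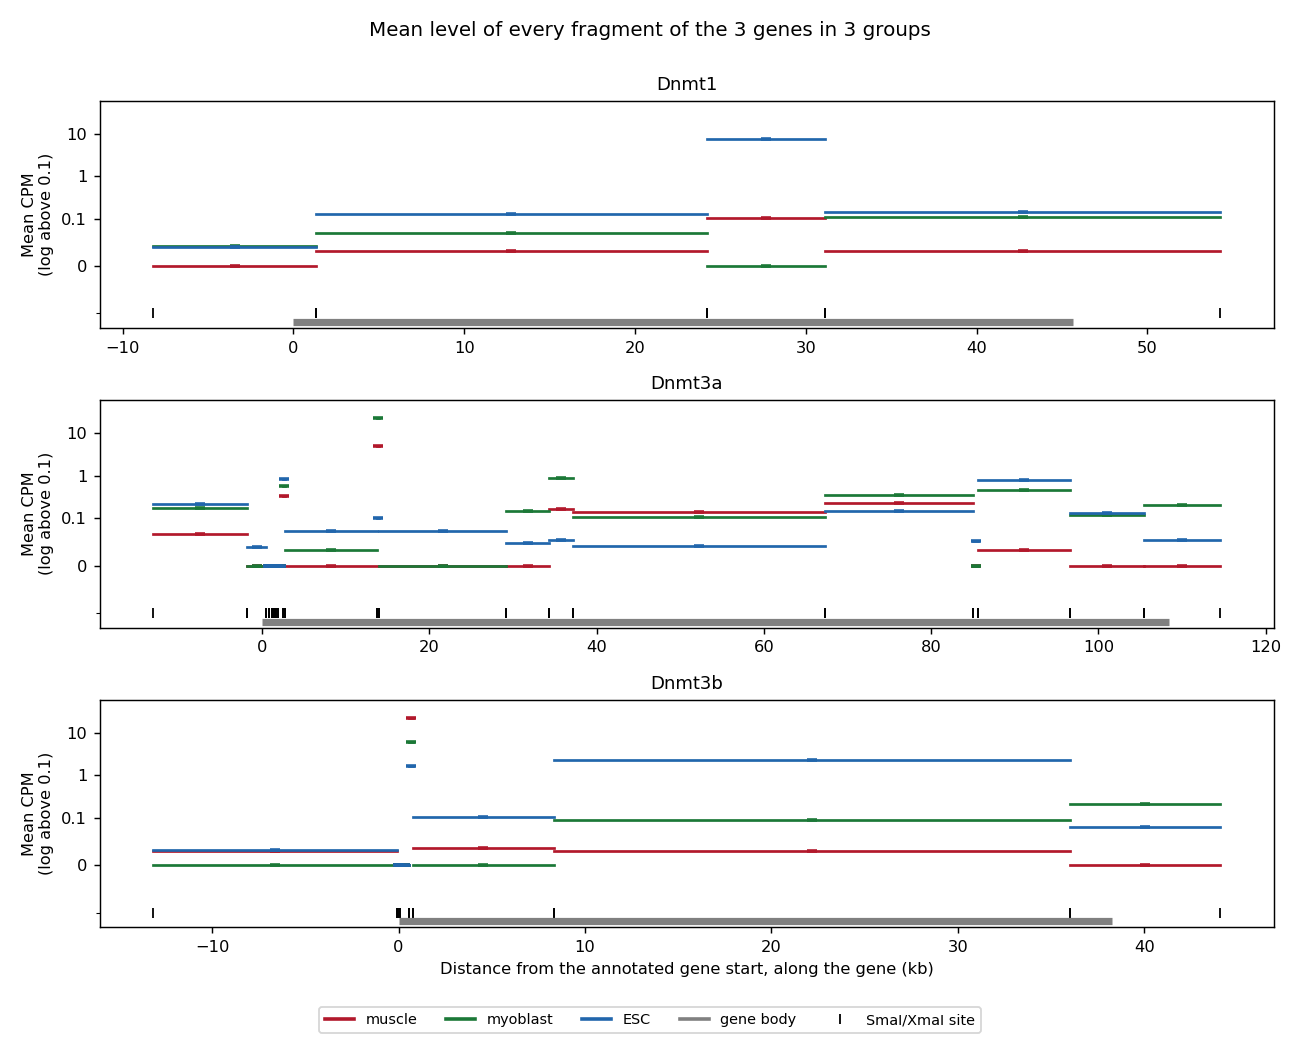
Mean level in CPM (log scale above 0.1, linear below) of every fragment of Dnmt1, Dnmt3a and Dnmt3b in muscle, myoblasts and ES cells, plotted along the gene in kb from its annotated start; each horizontal line spans 1 fragment, black ticks mark the restriction sites and the grey bar the gene body. The highest levels are 7.33 CPM in ES cells in Dnmt1, 23.03 CPM in myoblasts in Dnmt3a and 22.5 CPM in muscle in Dnmt3b, and the site-dense starts of Dnmt3a and Dnmt3b lie at or near 0.

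In Dnmt1, the gene of the maintenance enzyme, 1 fragment was read almost only in ES cells. It spans 6898 bp of exons and introns (chr9:20726216-20733113) about the middle of the gene. It had 0, 1 and 2 reads in muscle replicates 1, 2 and 3, no read in the 3 myoblast libraries and none at day 2. Each library of day 1, day 4, passage 0 and the freshly isolated cells had 1 read. The ES libraries had 56, 54, 67 and 91 reads in CGR8, its technical replicate, RD1 and E14Tg2. All 4 ES libraries lie far above every other library. The ES mean was 7.33 ± 3.24 CPM (SD, n = 3), against a highest value of 0.199 CPM in any other library.
The same fragment passed the low-count filter in the comparisons with ES cells, and only through the ES libraries, so a test there had to find a difference; its values are given without one. In muscle the 3 reads, against 268 in ES cells, correspond to a CPM ratio of 0.0161 (95% exact binomial interval 0.0033 to 0.0476, counting error only). In day 4 myotubes the ratio was 0.0134 (0.00275 to 0.0396). Myoblasts, with no read, had a ratio of 0 (0 to 0.021). Taken at a floor of 3 reads over the group, they would be 59-fold lower than ES cells. Long fragments took a larger share of ES reads, as given above. Among the reads of fragments of 6000 to 7999 bp, this fragment had 0 to 227 class CPM (scaled by the reads of the class in place of all reads) in muscle, 0 in myoblasts and 38.4 to 60.8 in day 4 myotubes, against 508 to 1608 in the 4 ES libraries, which thus also lie highest within that length class. The other 3 Dnmt1 fragments are 9533 to 23175 bp long and had 8 to 22 reads over all libraries.

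In Dnmt3a, whose product is the main de novo enzyme of differentiated cells, the 198 bp intron fragment held 3417 of the gene's 4527 reads. Its midpoint lies 12735 bp from the nearest protein-coding transcript start (Dnmt3a-006) and overlaps no exon and no annotated repeat in the deposited table. It had 5.18, 4.13 and 5.67 CPM in muscle replicates 1, 2 and 3. In cultures 21, 26 and 27 it had 22.3, 31.5 and 15.3 CPM in myoblasts and 21.1, 30.2 and 11.7 CPM at day 1. The same cultures had 16.1, 25.2 and 19.1 at day 2, and 19.3, 21.5 and 18.1 at day 4. Every culture library lies above every muscle library, and the days overlap one another. Passage 0 cells had 23.01 CPM in culture 26 and 10.5 CPM in culture 27, and freshly isolated precursors 21.5 CPM after injury and 19.9 CPM without it. The CGR8 library, its technical replicate, RD1 and E14Tg2 had 0.068, 0.408, 0.099 and 0 CPM. By CPM of all reads the fragment was thus read in the uncultured precursors at about the level of the cultures, and the ES lines held 6 reads in all. The uninjured precursor library had the largest share of reads in fragments of 190 to 209 bp, 3.30%. Within that length class it had 603 class CPM, below every myoblast and myotube library (767 to 1434). Precursors after injury had 905 class CPM, and passage 0 cells 836 in culture 26 and 597 in culture 27.

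Ordered by group mean, the Dnmt3a intron fragment had 23.03 ± 8.12 CPM in myoblasts, 21.02 ± 9.26 at day 1, 20.1 ± 4.60 at day 2 and 19.6 ± 1.77 at day 4 (SD, n = 3 each). Below these came 16.7 ± 8.85 CPM at passage 0 (SD, n = 2), 4.99 ± 0.79 CPM in muscle and 0.101 ± 0.102 CPM in ES cells (SD, n = 3 each). From myoblasts to passage 0 neighbours in this order differ by less than their spread. The values of muscle and of ES cells overlap those of no other group, which the choice of the fragment on these levels favours and which is no test. By CPM from summed reads, myoblasts were at 160 times ES cells, muscle at 36.0 times ES cells, and muscle was at 0.225 times myoblasts. Among the reads of fragments of 190 to 209 bp it had 308 to 455 class CPM in muscle, against 767 to 1240 in myoblasts and 0 to 24.7 in the 4 ES libraries, the highest of them the CGR8 technical replicate. Myoblasts, muscle and ES cells thus keep their order within the length class. The culture stages do not, with class means of 1124 at day 2, 1099 at day 1, 1047 in myoblasts and 1004 at day 4. The C57BL/6J muscle library, at 5.67 CPM, lies close to the 2 muscle libraries of mixed strain.

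**Figure D3:**
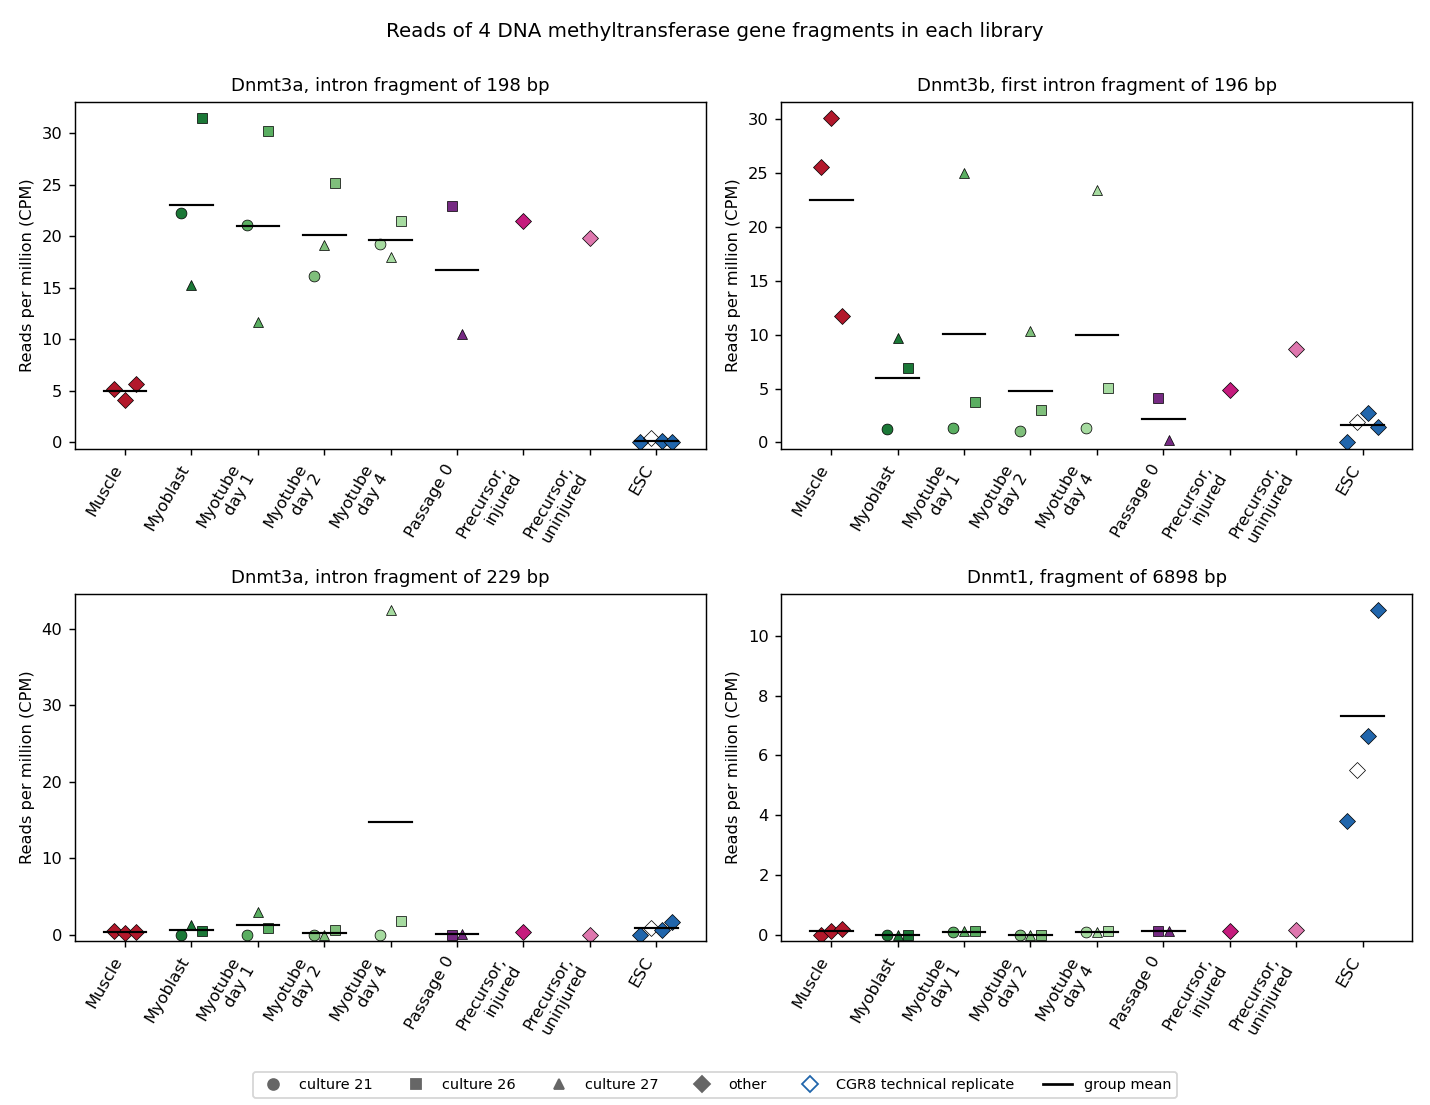
Level in CPM of all reads of 4 fragments in each of the 23 libraries; symbols give the culture, the open diamond is the CGR8 technical replicate, and black lines are group means (ES mean over 3 lines). The Dnmt3a intron fragment lies at 10.5 to 31.5 CPM in all cultures and precursors, 4.13 to 5.67 in muscle and 0 to 0.408 in ES cells; the Dnmt3b fragment is highest in muscle and in culture 27; the 229 bp Dnmt3a fragment rests on 1 library at 42.5 CPM; the Dnmt1 fragment is read in ES cells.

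The other Dnmt3a fragment printed above, 229 bp long with its midpoint 1529 bp from the start of Dnmt3a-006, depended on a single library. Culture 27 at day 4 had 586 reads, or 42.5 CPM, against 1.80 CPM in culture 26 and 0 in culture 21 on the same day. In the other libraries it had 0 to 2.95 CPM, with 2.95 CPM in culture 27 at day 1, none in that culture at day 2, and 0, 0.816, 0.595 and 1.67 CPM in CGR8, its technical replicate, RD1 and E14Tg2. Its mean at day 4, 14.8 ± 24.0 CPM against 0.587 ± 0.623 CPM in myoblasts (SD, n = 3 each), is therefore smaller than its spread. edgeR's quasi-likelihood test gave a log2 change of 4.67 ± 1.98 (SE) with a Benjamini-Hochberg adjusted p of 1 for day 4 against myoblasts, and 0.84 ± 1.69 without culture 27 at day 4. With the culture as replicate block the change was 3.90 ± 0.93 with an adjusted p of 0.031, the lowest of its alternatives; in that fit 1060 fragments of the genome had an unadjusted p under 0.05. Against ES cells the day 4 change was 4.46 ± 1.83 (adjusted p = 0.187), and 0.52 ± 1.23 without culture 27. The longer Dnmt3a fragments had lower levels. The 2875 bp intron fragment at chr12:3840292-3843166, which holds a MIR repeat, reached 2.45 CPM in precursors after injury, 1.28 CPM in precursors without injury, 2.10 CPM in culture 27 at day 4 and 1.96 CPM in culture 27 myoblasts, and 0.204 CPM or less in every ES library. The fragment of 11018 bp at chr12:3891578-3902595 had 40 reads in CGR8 and 4 in its technical replicate.

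In Dnmt3b, the de novo enzyme of the early embryo, the 196 bp fragment of the first intron held 1863 of the gene's 2077 reads. Its midpoint lies 513 bp from the start of Dnmt3b-009, in a CpG island shore by the deposited annotation, and also falls in the overlapping gene 7530422B04Rik. It had 25.5, 30.1 and 11.7 CPM in muscle replicates 1, 2 and 3. In cultures 21, 26 and 27 it had 1.27, 6.90 and 9.72 CPM in myoblasts and 1.36, 3.74 and 25.0 CPM at day 1. The same cultures had 1.10, 3.00 and 10.4 at day 2, and 1.34, 5.09 and 23.4 at day 4. Culture 27 was highest and culture 21 lowest at each of these 4 stages, and culture 27 at days 1 and 4 reached the range of muscle. Passage 0 cells had 4.14 CPM in culture 26 and 0.218 CPM in culture 27, and freshly isolated precursors 4.90 CPM after injury and 8.66 CPM without it. The CGR8 library had no read at this fragment and its technical replicate 19, and RD1 and E14Tg2 had 2.78 and 1.43 CPM. Over the genome, 118 of 763 fragments of 150 to 299 bp with 10 to 30 reads in the 2 libraries together, or 15.5%, had none in one of them.

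Muscle stood above ES cells at the Dnmt3b first-intron fragment. It averaged 22.5 ± 9.56 CPM in muscle, 5.96 ± 4.30 CPM in myoblasts, 9.95 ± 11.8 CPM at day 4 and 1.66 ± 1.02 CPM in ES cells (SD, n = 3 each). Muscle exceeded ES cells by a log2 change of 4.70 ± 0.63 (SE; edgeR adjusted p = 0.000229), with no overlap of libraries, and the call was kept in all 15 alternatives. With CGR8 at 0.775 CPM, the fragment passed the low-count filter here only with the muscle libraries, so the filter favours this call. With no filter the log2 change was 4.56 ± 0.62. Muscle exceeded myoblasts by 2.63 ± 0.75 (adjusted p = 0.0294), again without overlap, 11.7 CPM being the lowest muscle and 9.72 CPM the highest myoblast value. That call was lost without muscle replicate 1 (adjusted p = 0.0751), muscle replicate 2 (0.0932), myoblast culture 27 (0.0598) or myoblast culture 26 (0.0713), and over its 14 alternatives the adjusted p ranged between 0.00149 and 0.112. Without either of the 2 mixed-strain muscle libraries no fragment of the genome was called by edgeR in this comparison, and 7165 and 7725 had an unadjusted p under 0.05. Myoblasts and day 4 myotubes overlapped ES cells at this fragment, through culture 21, with log2 changes of 1.96 ± 0.73 (adjusted p = 0.0908, range over alternatives 0.00572 to 0.307) and 2.95 ± 0.97 (adjusted p = 0.103, range 0.0069 to 0.346, the lowest with DESeq2). The C57BL/6J muscle library, at 11.7 CPM, was the lowest of the 3. Among the reads of fragments of 190 to 209 bp the fragment had 929 to 2248 class CPM in muscle, against 64.5 to 487 in myoblasts and 0 to 136 in the 4 ES libraries.

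The longest Dnmt3b fragment was, like the 6898 bp fragment of Dnmt1, read mainly in ES cells. It spans 27690 bp of exons and introns (chr2:153483500-153511189) and had 0 to 3 reads in every muscle, culture and precursor library, against 9, 21, 39 and 16 reads in CGR8, its technical replicate, RD1 and E14Tg2. Its mean was 0.031 ± 0.053 CPM in muscle, 0.095 ± 0.091 in myoblasts and 0.086 ± 0.018 at day 4, against 2.33 ± 1.37 in ES cells (SD, n = 3 each). It, too, entered the fits only through the ES libraries and is given without a test. Fragments of 10000 bp or more took 0.973 to 1.60% of reads in muscle, 1.16 to 3.15% in myoblasts and myotubes and 4.74 to 6.12% in ES cells. Among the reads of fragments of 10000 bp or more, the fragment had 0 to 18.9 class CPM in the muscle, culture and precursor libraries, against 10.0, 43.9, 81.6 and 38.5 in CGR8, its technical replicate, RD1 and E14Tg2. The first CGR8 library thus lies among the others within the length class, and the other 3 ES libraries lie above them. The last fragment, 8073 bp over the 3′ end (chr2:153511190-153519262), had 24, 0 and 25 reads at day 1, 3, 1 and 13 at day 2, and 0, 0 and 14 at day 4 in cultures 21, 26 and 27, and none in muscle.

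Across the genes, the fits on all fragments of the genome were read against the share of fragments called in each comparison. The Dnmt3b first-intron fragment was among the 24.4% of all tested fragments that were called higher in muscle against ES cells and among the 13.7% called higher in muscle against myoblasts. It entered the first of these fits only with the muscle libraries, as given above. It was not among the 8.22% called higher in myoblasts, and neither it nor the 229 bp Dnmt3a fragment was among the 5.42% called higher at day 4, against ES cells. The long Dnmt1 and Dnmt3b fragments were on the side called lower against ES cells, which held 34.6% of all tested fragments in muscle, 11.7% in myoblasts and 5.93% at day 4; having passed the low-count filter only because ES cells were high, they are not counted as results. The 3 comparisons with ES cells share those libraries. With library totals in place of TMM scaling the median log2 change of all fragments shifted to -1.14, against -0.34, in muscle against ES cells and to -0.65, against -0.13, in muscle against myoblasts. The split of calls then was 3682 higher and 10948 lower, against 5616 and 7959 with TMM, in muscle against ES cells, and 1313 higher and 4137 lower, against 2779 and 3530, in muscle against myoblasts. The members kept their directions in these 2 comparisons, with 3.78 in muscle against ES cells and 1.91 in muscle against myoblasts for the Dnmt3b first-intron fragment. With library totals its call in muscle against myoblasts was lost (edgeR adjusted p = 0.0929).

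**Figure D4:**
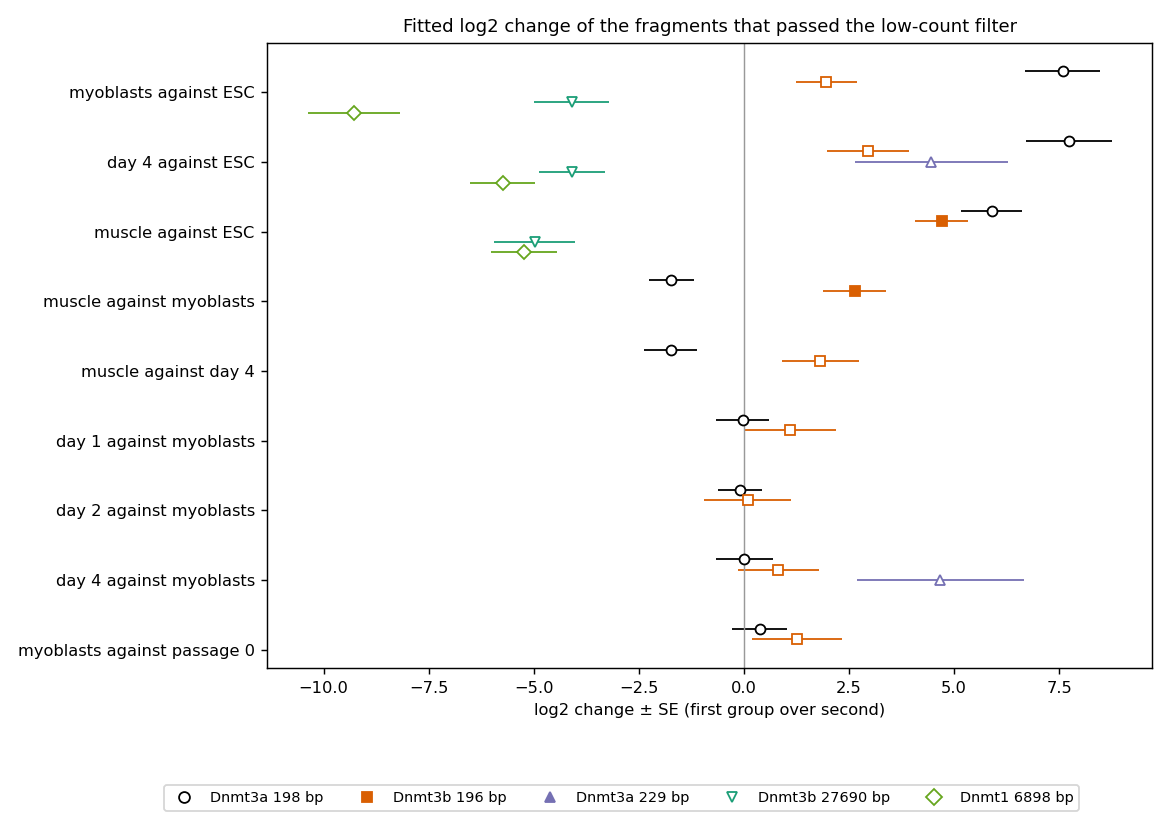
Log2 change ± SE from edgeR (first group over second) for the 5 fragments that passed the low-count filter, in 9 comparisons; filled symbols have an adjusted p under 0.05, and the Dnmt3a 198 bp fragment and the 2 long fragments are drawn open because they are not tested. Against ES cells the Dnmt3b 196 bp fragment is called at 4.70 in muscle and the 2 long fragments lie below 0 in all 3 comparisons; the symbol at -9.28 is a fitted value against a group with no read and no bound. No symbol is filled between culture stages.

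In the main fits, which did not pair the cultures, the members gave no call between stages of the cultures, and neither did the genome. At day 1 against myoblasts edgeR called 0 of 22016 fragments (0%; 6 at an unadjusted p under 0.05; DESeq2 called 0). At day 2 it called 0 of 21781 (0%; 64 unadjusted; DESeq2 0), and at day 4 it called 0 of 22438 (0%; 83 unadjusted; DESeq2 0). With the culture as replicate block the day 4 comparison called 39 fragments, among them the 229 bp Dnmt3a fragment described above. The Dnmt3b first-intron fragment had log2 changes of 1.10 ± 1.10, 0.09 ± 1.04 and 0.82 ± 0.96 at days 1, 2 and 4 (SE), which turned to -0.60, -1.02 and -0.16 without culture 27. The Dnmt3a intron fragment had -0.03 ± 0.63, -0.09 ± 0.52 and 0.01 ± 0.67, values whose sign changed with the library left out and, at day 4, with the scaling. Myoblasts against passage 0 gave 0 calls among 23419 fragments (0%; 665 unadjusted; DESeq2 called 3), and 996 with the culture as replicate block, none of them a member; the log2 changes were 1.27 ± 1.07 for the Dnmt3b and 0.37 ± 0.65 for the Dnmt3a fragment. Muscle against day 4 gave 0 calls among 19353 fragments (0%; 4613 unadjusted; DESeq2 called 2231, none of them a member), with 1.82 ± 0.92 for the Dnmt3b fragment (adjusted p = 0.251). None of these p-values shows that stages are alike.

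Summed over fragments under 2000 bp, Dnmt3a had 5.32 ± 0.858 CPM in muscle, 23.6 ± 7.82 in myoblasts, 22.3 ± 8.21 at day 1, 20.4 ± 4.94 at day 2, 34.4 ± 22.8 at day 4 and 1.02 ± 0.672 in ES cells (SD, n = 3 each). Most of each sum is the 198 bp fragment, except in ES cells, where it gave 0.101 CPM and the 229 bp fragment 0.864 CPM, and the day 4 value also holds the 586 reads of culture 27. Dnmt3b had 22.5 ± 9.56 CPM in muscle and 1.66 ± 1.02 in ES cells by the same sum, which there is the first-intron fragment alone.

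The authors' deposited tables of their own comparisons list 4 of the 37 members, the 198 and 229 bp Dnmt3a fragments, the Dnmt3b first-intron fragment and a 528 bp Dnmt3a fragment with 2 reads. For the Dnmt3b fragment the authors' deposited table gives a log2 fold of 3.61 for muscle over ES cells (pooled-variance adjusted p = 6.61e-07) and of 1.84 for muscle over myoblasts (0.019). For the 198 bp Dnmt3a fragment the authors' deposited table gives 6.17 for myoblasts over ES cells, 3.95 for muscle over ES cells and -2.22 for muscle over myoblasts, after 1 was added to each mean. For the 229 bp fragment at day 4 over ES cells the authors' deposited table has an adjusted p of 0.431 with pooled variance and of 0.00053 with variance estimated per condition, so the call depends on that choice.

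The fragments most like the Dnmt3a intron fragment over the 22 samples, by Pearson's r of log2(CPM + 1) among 6128 candidates under 2000 bp, overlap Lass4 (0.982), Dusp10 (0.977), Mrps12 (0.976), Dhps (0.976) and Cap2 (0.974). The samples share cultures and the length composition of their libraries, so these values are a description. The Lass4 fragment (chr8:4523541-4523769) had a mean of 25.6 CPM in muscle, 148 CPM in myoblasts and 0.095 CPM in ES cells, and the Dhps fragment (chr8:87597823-87598233) 59.9 CPM in muscle, 354 CPM in myoblasts and 0.373 CPM in ES cells.

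Other genes of DNA methylation were looked up from a list of 32, which covers cofactors of the methyltransferases, TET enzymes that oxidise methylcytosine, methyl-CpG binding proteins and repressors that recruit the methyltransferases. All 32 overlap fragments, 200 in all. In muscle against ES cells 20 of these fragments were tested, of which 7 rose and 6 fell (24.4% and 34.6% of all tested fragments), with a median log2 change of 0.27 against -0.34 over all fragments tested. In myoblasts against ES cells 22 were tested, 3 rose and 1 fell (8.22% and 11.7% of all; median 0.26 against -0.08), and at day 4 against ES cells 22 were tested, 2 rose and none fell by edgeR (5.42% and 5.93% of all; median 0.21 against 0). In muscle against myoblasts 18 were tested, 1 rose and 4 fell (13.7% and 17.4% of all; median -0.57 against -0.13).

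Tet3, which encodes one of the TET enzymes, carried the smallest p in both directions against ES cells. Its fragment at chr6:83371074-83371977 had 91.5 ± 25.3 scaled CPM in muscle, against 0.126 ± 0.152 in ES cells (SD, n = 3 each). The fitted log2 change of this fragment was 9.14 ± 0.76 in muscle, 8.28 ± 0.90 in myoblasts and 8.60 ± 1.09 at day 4 (SE). With so few reads in ES cells, it passed the low-count filter only through the other group. A test there had to find a difference, so its values are given without one. The counts of risen fragments above include it. Another Tet3 fragment, at chr6:83389847-83390255, had fitted log2 changes of -3.59 ± 0.73 in muscle and -4.01 ± 0.91 in myoblasts against ES cells. It had 1.17 ± 0.974 scaled CPM in myoblasts, against 18.8 ± 12.7 in ES cells (SD, n = 3 each). Being low outside ES cells, it passed the low-count filter through the ES libraries and is likewise given without a test. The counts of fallen fragments in muscle and myoblasts include it. Fitted changes of fragments of one gene thus differed in sign. Between muscle and myoblasts the smallest p among higher fragments was in Usp7, a deubiquitinase known to bind DNMT1 (1.44 ± 0.47, adjusted p = 0.0428), and among lower ones in Kdm2b, a protein that binds unmethylated CpG islands (1.80 ± 0.94 scaled CPM in muscle, against 19.2 ± 6.75 in myoblasts, SD, n = 3 each; log2 change -3.39 ± 0.63, adjusted p = 0.0121). Like every edgeR call in this comparison, these were lost when either mixed-strain muscle library was left out. Whether strain or the smaller group accounts for that was not tested.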

How the data were processed

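Sequencing was on an Illumina GA2 (labels' protocols). Bowtie 0.11.3, the mm9 build and DESeq are listed in the submitters' processing notes. Raw read counts per fragment between neighbouring CCCGGG sites were analysed as deposited by the authors; 184 columns of that table that are no library of this series were not used. The authors' deposited comparison tables give scaled signal means, log2 folds with 1 added to each mean, and adjusted p-values; their second normalisation was not used. Members were found by overlap with GENCODE M1 genes on NCBIM37 (mm9). The members, gene lists and tests were chosen with earlier results of these data known, and fragments are named in the text where a group mean reached 1 CPM. Some below that level are given too, such as unread neighbours and the 11018 bp Dnmt3a fragment, which was added for its unequal CGR8 libraries.

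Counts were fitted with edgeR 4.0.16 (glmQLFit and glmQLFTest, R 4.3.3) on all fragments of the 2 groups compared, with TMM scaling, filterByExpr (minimum count 10), Benjamini-Hochberg adjustment over all fragments tested, a threshold of 0.05 and 2-sided tests; the fits were tested on simulated data. DESeq2 1.42.0 and the settings in the closing section were alternatives. Likeness to the Dnmt3a fragment was taken over fragments with a mean of 10 CPM or more. Of the other methylation genes, the fragment with the smallest p in each direction among called ones is named. Replicate numbers pair cultures by their titles: deviations of same-culture libraries from their group means correlated at 0.62 to 0.88 (day 1), 0.40 to 0.72 (day 2) and 0.65 to 0.85 (day 4) with myoblasts, and at -0.04 and 0.44 between myoblasts and passage 0. The labels name 3 cultures and 3 ES lines; for muscle nothing says more than that libraries are separate, so p-values measure the spread between these samples. PCR copies cannot be removed here, and so each interval, like the floor of 3 reads, holds counting error alone.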

Additional observations from a re-analysis of the deposited data

How the results depend on the processing

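The number of called members, the Dnmt3a 198 bp fragment left out, was 3 of 3 tested in muscle, 2 of 3 in myoblasts and 2 of 4 at day 4 against ES cells. It was 1 of 1 in muscle against myoblasts and 0 elsewhere. Of all tested fragments, 24.4% were called higher and 34.6% lower in muscle, 8.22% and 11.7% in myoblasts, and 5.42% and 5.93% at day 4 against ES cells. In muscle against myoblasts these shares were 13.7% and 17.4%. The calls lower against ES cells are of the long fragments that passed the low-count filter only through ES cells. The call higher in muscle against ES cells is of the Dnmt3b first-intron fragment, which passed only with the muscle libraries. The counts of called members below are therefore no result about the members. The number of called members moved as follows. With fragments under 2000 bp only, where the long members are not tested, it was 1 in muscle, 0 in myoblasts and 0 at day 4 against ES cells. With DESeq2 it was 4, and with no low-count filter 5, at day 4 against ES cells; in myoblasts it was 3 with either, and in muscle 4 with no filter. With no low-count filter it was 1 in muscle against day 4 and 1 at day 4 against myoblasts. Without the CGR8 technical replicate it was 2 in muscle, 1 in myoblasts and 1 at day 4 against ES cells, and so it was with the fit within length classes, chosen after seeing the data. In muscle against myoblasts it was 0 with library totals, 0 in 1 fit of all groups and 0 with the replicate block; the numbers there pair nothing. With the replicate block it was 1 at day 4 against myoblasts, and the block changed no other member call. Leaving out 1 library gave 1 to 3 in myoblasts and 1 to 4 at day 4 against ES cells, 0 to 1 in muscle against myoblasts and 0 to 1 in muscle against day 4. The cause was not tested except where fewer fragments were in the fit.

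The log2 changes of stages against myoblasts changed sign as follows, none of them called. For the Dnmt3b first-intron fragment, without culture 27, -0.60 (day 1), -1.02 (day 2) and -0.16 (day 4); at day 2 also -0.30 with library totals and -0.26 with the replicate block; leaving out 1 library, -0.93 to 1.61 (day 1), -1.30 to 0.75 (day 2) and -0.51 to 1.24 (day 4). For the Dnmt3a 198 bp fragment, at day 1, 0.06 with no filter, 0.01 with the replicate block and 0.04 within length classes; at day 2, 0.09 with no filter, 0.05 in 1 fit of all groups and 0.26 within length classes; at day 4, -0.23 with library totals, -0.11 with fragments under 2000 bp and -0.12 without culture 27. Leaving out 1 library gave -0.36 to 0.25 at day 2, up to 0.25 at day 1, and -0.37 to 0.29 at day 4.

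Over all fragments, calls in muscle against myoblasts were 6309, and 1431 with the replicate block; at day 4 against ES cells 2893, and 4592 with DESeq2, 6173 with no filter, 1077 with fragments under 2000 bp and 4412 in 1 fit of all groups; in myoblasts against ES cells 5005, and 2636 with fragments under 2000 bp; in muscle against ES cells 13575, and 8272 with fragments under 2000 bp; in muscle against day 4 0, and 2231 with DESeq2, 522 with no filter, 1768 in 1 fit of all groups and 41 within length classes; in myoblasts against passage 0 0, and 996 with the replicate block; at day 4 against myoblasts 0, and 39 with the replicate block and 107 with no filter.

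Depth limits the unread fragments: 0 reads allow up to 3 reads in a library.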
